A study of Mus musculus with 6 samples.

Results

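The report concerns cardiac fibroblasts that carry the Tie2-Cre lineage label, set against cardiac fibroblasts from the same kind of heart that do not. The arrays were chosen by their titles, which name traced and non-traced fibroblasts, and 4 of the 6 arrays in the series qualified. These are 1 array of traced and 1 of untraced fibroblasts after a sham operation, and 1 of each after transverse aortic constriction (TAC), a narrowing of the aorta that loads the left ventricle with pressure. All cells were sorted from the left ventricle of adult male Black Swiss mice aged 8 to 10 weeks, with 3 mice per surgery, and were isolated 1 week after it. The other 2 arrays hold endothelial cells, 1 per surgery, and are used only as a point of reference.

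Tie2-Cre is a Cre recombinase driven by the promoter of Tek, which encodes the angiopoietin receptor Tie2. Cre cuts DNA once and for good, so a cell stays labelled when it, or an ancestor of it, had an active Tek promoter. Endothelial and endocardial cells use this promoter, and so do some blood-forming cells, so the label marks a history and not a present state. In the developing heart some endocardial cells leave their layer and become mesenchyme of the cushions, from which valves and part of the septum arise. Most other fibroblasts of the ventricle descend from the epicardium, the outer cover of the heart. The question that the comparison addresses is how far fibroblasts of these histories differ in expression. The labels name neither the reporter that shows the tracing nor the surface markers used for sorting. They also do not say whether the RNA of the 3 mice was pooled, or whether the traced and untraced cells of a surgery came from the same hearts.

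With 1 array per group no difference has an error of its own, and no test was made. The check used instead was whether a difference had the same sign at sham and after TAC, which are separate pairs of arrays, and in every probe set of the gene. Levels are log2 of the array intensity, and a difference is always traced minus untraced, so that 1.00 stands for 2-fold. Genes above the array's own median on at least 1 of the 4 fibroblast arrays are called detected, which 11623 of 18194 genes were. Of these, 7184 had several probe sets, and such a gene is represented by its brightest.

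The traced and untraced profiles lay close together. At sham 94.5% of the detected genes differed by less than 1.5-fold, and after TAC 96.6% did. A total of 977 genes (8.41%) were higher in traced cells at both surgeries in all their probe sets, and 3081 (26.5%) were lower. The excess of lower genes moves with the scaling, since the median lineage difference over detected genes was -0.11 at sham and -0.07 after TAC. When the difference was first smoothed against brightness within each surgery (loess), the medians were -0.03 and -0.04, and 1460 genes (12.6%) were higher and 2454 (21.1%) lower. The share of higher genes among those of one sign was 24.1% in the deposited values, 31.9% after quantile normalization, 14.6% after each array was set to its own median and 37.3% after loess. Differences of a list are therefore read against the median and the percentages over all detected genes. All lists were written with earlier results of these data known, so their shares and medians are descriptions only. For larger differences the sign had to agree in every probe set, while the size was asked of the brightest one only. At a size of at least 1.5-fold at both surgeries, 28 genes (0.241%) were higher and 28 (0.241%) lower. Only 7 of the 28 higher and 10 of the 28 lower genes had several probe sets. For the rest the agreement of probe sets screened nothing. At a size of at least 2-fold, 4 genes (0.0344%) were higher and 2 (0.0172%) lower. Many of these are dim. Of the 28 lower genes 12 were above the array median only on untraced arrays, the 2 at 2-fold among them. Of the 28 higher genes 7 were above it only on traced arrays, among them Igsf6, 1 of the 4 at 2-fold. Such genes entered the counts through the lineage in which they are higher, so the counts are a description and not support for a difference. When the mean of the 4 arrays had to lie above the median, the 1.5-fold counts were 23 higher and 14 lower, and the 2-fold counts 3 and 0.

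**Figure D1:**
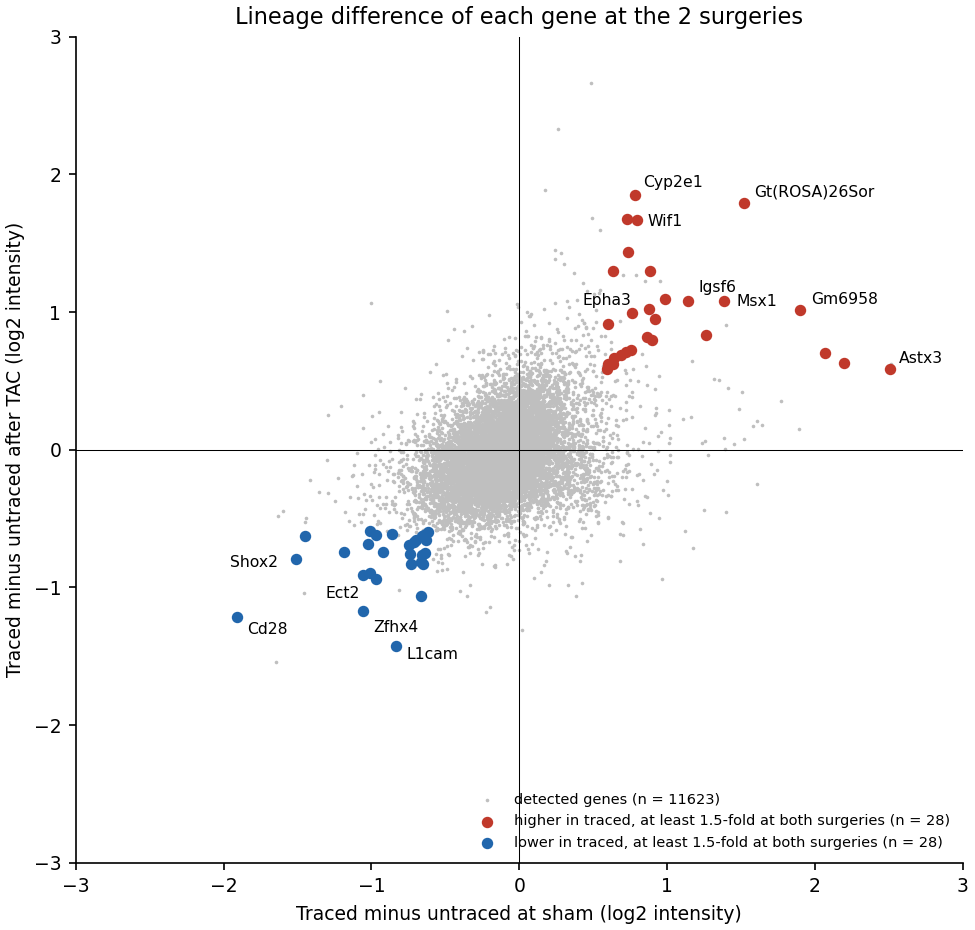
Lineage difference of each of the 11623 detected genes at sham (x axis) and after TAC (y axis), both as traced minus untraced in log2 intensity, with 1 array per group. Red points are the 28 genes higher in traced cells at both surgeries in all probe sets and at least 1.5-fold in the brightest. Blue points are the 28 lower ones by the same rule. The grey cloud holds the other genes and sits slightly below 0 on both axes.

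Some technical measures differed between the arrays. The 18S ribosomal RNA probe sets averaged 14.32 in traced and 14.11 in untraced cells at sham, but 14.11 in traced and 12.04 in untraced cells after TAC. On the untraced TAC array the Gapdh signal at the 3′ end exceeded that at the 5′ end by 2.10, against 1.19 to 1.33 on the other 3 fibroblast arrays. The bioB hybridisation spike-in was 0.29 higher on the traced array at sham and 0.35 higher after TAC. The part of these differences in the results was not tested, and for this reason the sham and TAC differences are given apart throughout.

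The labels were first set against marker genes. Summed over 25 detected fibroblast markers, the 4 fibroblast arrays had intensities of 241712 to 259970, and the endothelial arrays 36196 at sham and 103250 after TAC. Over the 29 endothelial markers on the array the fibroblast arrays summed to 11602 to 12097 and the endothelial arrays to 180093 to 207838. The fibroblast arrays thus carried the fibroblast markers whichever lineage label they had. Of the fibroblast markers 3 were higher (12.0%) in traced cells at both surgeries in all probe sets and 2 lower (8.0%). Of all detected genes 8.41% were higher and 26.5% were lower. The list medians were 0.02 at sham and -0.11 after TAC. Tcf21, a transcription factor of epicardium-derived fibroblasts, was 12.95 in traced and 12.91 in untraced cells at sham, and 12.51 and 12.17 after TAC. Its level was therefore no lower in the traced cells at either surgery.

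Tek, Kdr and Cdh5 were lower in the traced cells, while some other endothelial genes were higher. Tek itself, whose promoter drives the label, was 11.76 in traced and 11.91 in untraced cells at sham, and 10.70 and 11.14 after TAC. Kdr, a receptor for vascular endothelial growth factor, was 7.69 and 7.92 at sham and 5.92 and 7.10 after TAC, so it was lower in traced cells by -0.23 and -1.18. Cdh5, the cadherin of endothelial junctions, differed by -0.38 and -0.88. Erg, an endothelial transcription factor, went the other way at 0.27 and 0.44. In their brightest probe sets but not in all, so did Eng at 0.21 and 0.41 and Flt4 at 0.31 and 0.42. In all, 1 of the 22 detected endothelial markers was higher (4.5%) and 5 were lower (22.7%) at both surgeries in all probe sets. Both shares were below the 8.41% and 26.5% of all detected genes. In the brightest probe set 10 of the 22 were lower at sham and 14 after TAC, against 68.8% and 61.2% of all detected genes. The list medians were 0.02 at sham and -0.10 after TAC, against -0.11 and -0.07 for all detected genes. Of 6 detected Tie receptor and angiopoietin genes, 1 was higher and 2 were lower.

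The transcript of the Rosa26 locus had the largest difference among the 4 genes at least 2-fold higher at both surgeries, ranked by the smaller of the sham and TAC differences. Gt(ROSA)26Sor is a non-coding RNA from a locus that is widely used to house Cre reporters. It was 9.48 in traced and 7.96 in untraced fibroblasts at sham, and 9.78 and 7.98 after TAC. Both traced arrays lay between the untraced arrays and the endothelial arrays, which read 10.30 and 10.21. Its single probe set gave 2.87-fold at sham and 3.46-fold after TAC. The genes on either side did not share this difference. Thumpd3, which overlaps it in RefSeq, was 7.93 and 8.64 at sham and 8.50 and 9.02 after TAC in its brightest probe set. The second probe set of Thumpd3 gave -0.14 and 0.31. Setd5, the gene next to them, differed by 0.29 and 0.17.

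Msx1, a homeobox factor of the endocardial cushions that acts downstream of bone morphogenetic proteins, was higher in traced cells at both surgeries. It was 10.00 in traced and 8.61 in untraced cells at sham and 10.94 and 9.86 after TAC, and the endothelial arrays read 9.51 and 9.56. At sham the untraced level lay below both endothelial levels and the traced level above them. The second probe set of Msx1 differed by 0.62 and 0.92. Of 13 detected endocardial and cushion genes, 3 were higher (23.1%) and 1 was lower (7.7%) at both surgeries. Of all detected genes 8.41% and 26.5% were. The list was written with earlier results of these data known and holds Msx1, so its shares are a description and not support. The list medians were 0.06 at sham and 0.09 after TAC. The list members at least 1.5-fold higher were Msx1 and Cytl1, which encodes a small secreted protein. Cytl1 was 9.25 in traced and 8.57 in untraced cells at sham and 9.78 and 9.10 after TAC.

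Shox2, known for its part in limb growth and in the sinus node, was 6.84 in traced and 8.35 in untraced cells at sham and 7.30 and 8.09 after TAC. It was near the bottom of the scale on the endothelial arrays, at 3.13 and 3.79. Zfhx4, a large factor with both zinc fingers and homeodomains, was 5.72 and 6.78 at sham and 5.81 and 6.98 after TAC. Both traced arrays lay below both untraced arrays for these genes. Hoxb2, a gene of the Hox clusters that pattern the body axis, was lower by -0.97 at sham and -0.62 after TAC. Rhox5, an X-linked homeobox gene, was 9.80 and 10.99 at sham and 10.76 and 11.50 after TAC. Over 38 detected homeobox genes, 4 were higher (10.5%) and 10 lower (26.3%) at both surgeries, shares near the 8.41% and 26.5% of all detected genes, and 1 and 3 of them differed by at least 1.5-fold. The list medians were -0.07 at sham and -0.06 after TAC, close to those of all genes. Among 33 detected cardiac and mesenchymal patterning factors 4 were higher and 4 lower. The lower ones include Nr2f1, a nuclear receptor of atrial identity, with differences of -0.76 and -0.54.

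**Figure D2:**
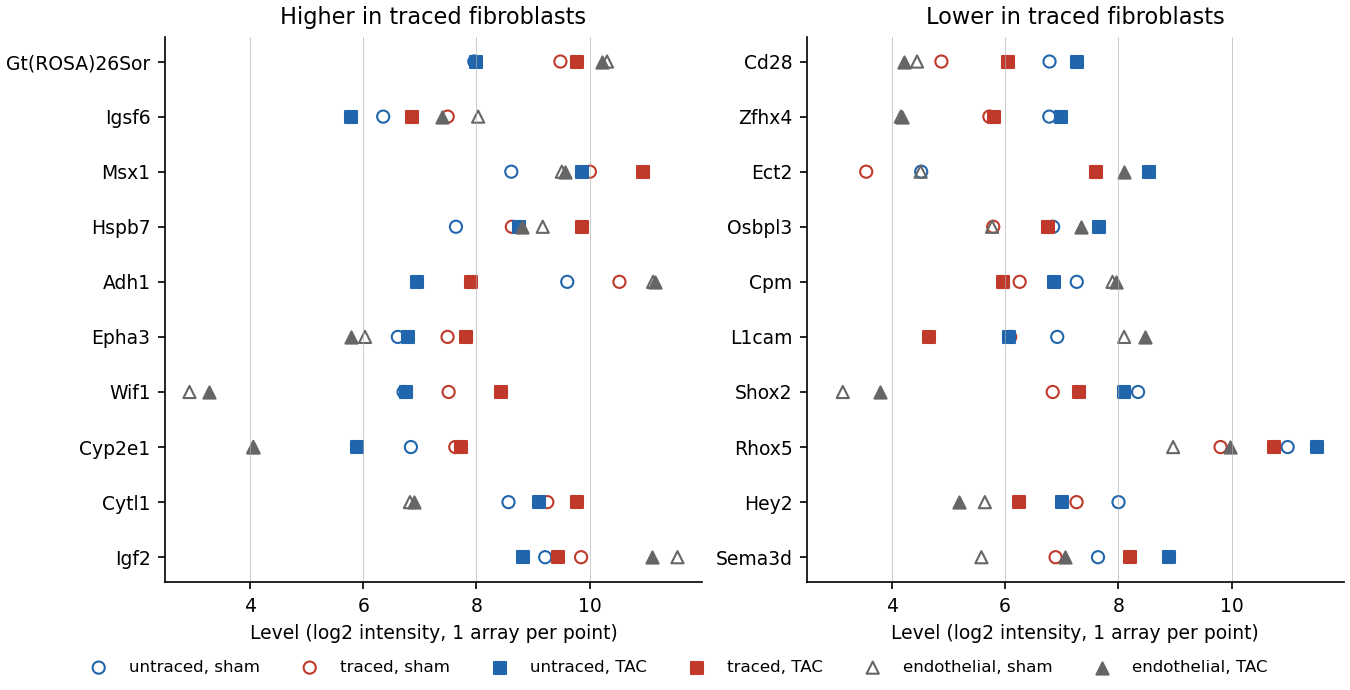
Level of 10 genes higher (left panel) and 10 genes lower (right panel) in traced fibroblasts, in log2 intensity on the x axis, with 1 array per point. Circles are fibroblasts at sham and squares fibroblasts after TAC, red for traced and blue for untraced, and triangles are the endothelial arrays; Gt(ROSA)26Sor shows both untraced points at about 8 and the traced points at 9.48 and 9.78.

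Of 9 detected epicardial markers 1 was higher (11.1%) and 4 were lower (44.4%) at both surgeries in all probe sets, against 8.41% and 26.5% of all detected genes, with medians of -0.09 at sham and -0.33 after TAC. The median of the mean difference was -0.23 over the detected markers but 0.07 when dim markers were kept. Sema3d, a secreted guidance cue made by the epicardium, was 6.89 in traced and 7.64 in untraced cells at sham and 8.20 and 8.89 after TAC. Aldh1a2, the main enzyme of retinoic acid synthesis in the epicardium, was 9.84 and 10.32 at sham and 11.55 and 12.06 after TAC. Aldh1a1 differed by -0.14 and -0.37. Rspo1, a secreted activator of Wnt signalling, differed by -0.75 and -0.13. The 1 higher marker was Tcf21. Scx, another marker of the list, was 7.84 in traced and 6.99 in untraced cells at sham and 10.07 and 9.46 after TAC. Its second probe set was not higher at both surgeries, so Scx was not counted. Within a surgery the traced array was the lower of the pair for each of the 4 lower genes, but for Sema3d, Aldh1a2 and Rspo1 the difference between surgeries was larger than the lineage difference. Rspo1 was 8.21 in traced and 8.96 in untraced cells at sham and 6.15 and 6.28 after TAC.

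Wif1, a secreted inhibitor that binds Wnt proteins, was 7.51 in traced and 6.71 in untraced cells at sham and 8.43 and 6.76 after TAC. The untraced cells held nearly the same level at both surgeries, while the traced level was higher after TAC. Of 26 detected Wnt pathway genes 3 were higher (11.5%) and 4 lower (15.4%), against 8.41% and 26.5% of all detected genes. The list medians were -0.08 and 0.02. Wnt5b, a Wnt ligand, was among the lower ones at -0.85 and -0.40. Epha3, an ephrin receptor that is expressed in cushion mesenchyme, was 7.49 and 6.61 at sham and 7.82 and 6.79 after TAC, and all 4 of its probe sets were higher, by up to 2.28. Among 38 detected axon guidance genes 2 were higher (5.3%) and 4 lower (10.5%), with medians of -0.15 and -0.02.

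In the Notch pathway 5 of 13 detected genes were higher at both surgeries in all probe sets and 1 was lower (38.5% and 7.7%, against 8.41% and 26.5% of all detected genes), with medians of 0.04 at sham and 0.19 after TAC. The median of the mean difference was 0.04, and -0.02 when each array was set to its own median. Notch3, the receptor typical of mural cells, was 10.40 in traced and 9.95 in untraced cells at sham and 9.91 and 9.33 after TAC. Maml2, a coactivator of the Notch complex, differed by 0.32 and 0.48. Hey2, a target gene of the pathway, went against them. It was 7.26 and 8.00 at sham and 6.25 and 7.01 after TAC, while its relative Hey1 differed by 0.12 and 0.37. Of 13 detected mural cell markers, Notch3 among them, 3 were higher and 3 lower.

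In the list of growth factors and their receptors 9 of 32 detected genes were higher in traced cells and 3 lower, where 8.41% and 26.5% of all detected genes were, with medians of 0.01 at sham and 0.12 after TAC. Igf2, an imprinted growth factor, was 9.85 in traced and 9.21 in untraced cells at sham and 9.45 and 8.82 after TAC, and its second probe set differed by 0.43 and 0.63. Igfbp5, a protein that binds insulin-like growth factors, differed by 0.49 and 0.68, and Igfbp3, another, by 0.64 and 0.40. The endothelial arrays stood above the fibroblast arrays for Igf2, at 11.55 and 11.11. Pdgfc, a ligand of the platelet-derived growth factor receptors, differed by 0.32 and 0.44. In the BMP and TGF-beta pathway 3 of 33 detected genes were higher and 7 lower, with medians of -0.07 and 0.02. Inhbb, a subunit of activin B, was 11.10 in traced and 11.58 in untraced cells at sham and 9.78 and 10.29 after TAC. Id3, a target gene of bone morphogenetic proteins, differed by 0.20 and 0.29.

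Genes that do not belong to these groups were also among the 28 higher ones. Hspb7, a small heat shock protein of heart muscle, was 8.62 in traced and 7.64 in untraced cells at sham and 9.86 and 8.76 after TAC, and its 3 probe sets agreed. Adh1, an alcohol and retinol dehydrogenase, was 10.52 and 9.60 at sham and 7.90 and 6.95 after TAC. Cyp2e1, a cytochrome P450 of alcohol metabolism, was 7.63 and 6.84 at sham and 7.73 and 5.89 after TAC. Adh1 was high in the endothelial cells, at 11.12 and 11.15, and Cyp2e1 was low there, at 4.06 and 4.05. Cntfr, the receptor for ciliary neurotrophic factor, differed by 0.60 and 0.91, and Sned1, a matrix glycoprotein, by 0.60 and 0.62. Astx3, Speer8-ps1 and Speer4cos differed by 2.51, 2.20 and 2.06 at sham but by only 0.59, 0.63 and 0.70 after TAC. Gm6958, a predicted gene, was 12.67 and 10.77 at sham and 11.33 and 10.31 after TAC. Many of the higher genes are of this kind, since 12 of the 28 are not listed as protein coding, against 3.20% of all detected genes and 1 of the 28 lower ones.

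Among the 28 lower genes, Cd28 differed most when ranked by the smaller difference. Cd28, a costimulatory receptor of T cells, was 4.88 in traced and 6.78 in untraced cells at sham and 6.06 and 7.27 after TAC, and its second probe set differed by -1.47 and -1.09. It was the only one of 4 detected lymphocyte markers to be lower at both surgeries, and none was higher. L1cam, an adhesion molecule of nerve cells, was 6.09 and 6.92 at sham and 4.65 and 6.08 after TAC. Cpm, a carboxypeptidase on the cell surface, was 6.26 and 7.27 at sham and 5.96 and 6.86 after TAC. Osbpl3, an oxysterol-binding protein, was 5.79 and 6.85 at sham and 6.75 and 7.66 after TAC. The lower genes were dim as a group, with a median level of 6.83, against 7.64 for the higher genes and 9.36 for all detected genes. Chl1, an adhesion molecule related to L1cam, and Syn2, a synapsin, were at least 2-fold lower at both surgeries in their brightest probe sets. Their other probe sets did not all have the same sign. Of the 4 probe sets of Chl1 one gave 0.21 after TAC, and of the 6 of Syn2 a pair gave 0.13 and 0.003. Of 8 detected Schwann and neuronal genes 3 were lower (37.5%) and none was higher, where 26.5% and 8.41% of all detected genes were. The list medians were -0.23 and -0.25.

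**Figure D3:**
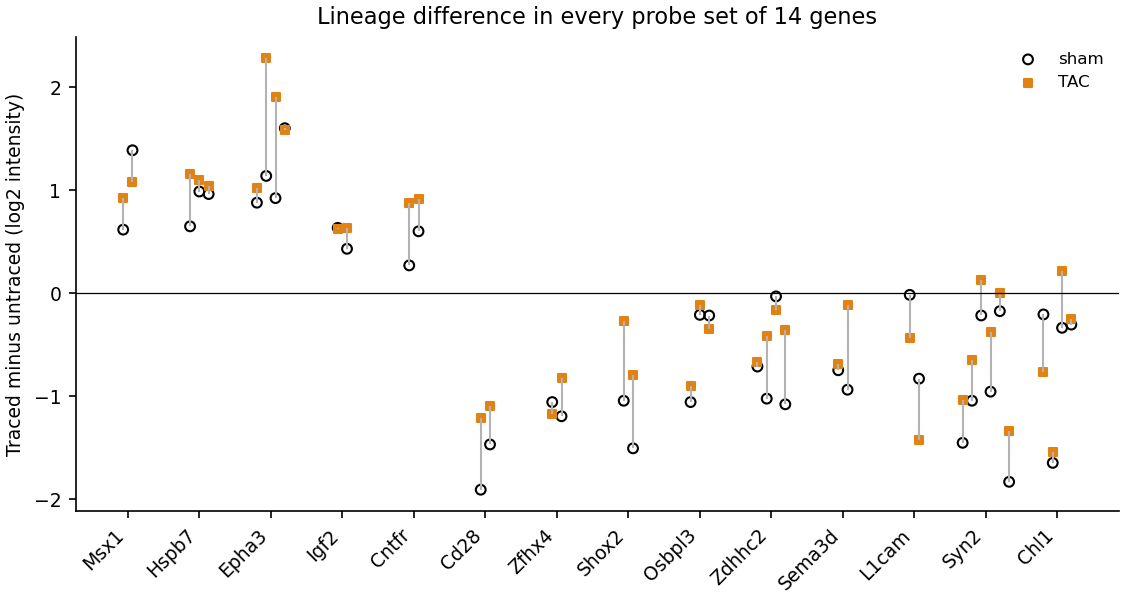
Lineage difference (traced minus untraced, log2 intensity) in every probe set of 14 genes, with a circle for sham and a square for TAC joined by a line. All probe sets of Msx1, Hspb7, Epha3, Igf2 and Cntfr lie above 0 and those of Cd28 and Zfhx4 below it, while Syn2 and Chl1 each have at least 1 probe set above 0 after TAC.

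The endothelial arrays took no part in the differences that chose these 56 genes. Of the 28 higher genes 16 (57.1%) lay above the median of both endothelial arrays, and of the 28 lower ones 10 (35.7%) did, against 82.1% of all detected genes. These shares were not matched for brightness. On the fibroblast arrays the median level was 7.64 for the higher and 6.83 for the lower genes, against 9.36 for all detected genes. Of the fibroblast differences themselves, which chose the genes, 27 of the 28 higher and 22 of the 28 lower were still at least 1.5-fold after loess. At the edge of the threshold, Fam217b was just inside with a smaller difference of 0.59 and AI593442 just inside on the lower side with -0.59, while Il6ra was just outside with 0.57 and Lig1 with -0.57.

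Cell cycle genes were among the 28 lower genes. Ect2, an exchange factor needed for the division of the cell body, was 3.55 in traced and 4.52 in untraced cells at sham and 7.60 and 8.54 after TAC. Gmnn, which encodes geminin, an inhibitor of repeated DNA replication, was 5.07 and 6.09 at sham and 7.83 and 8.51 after TAC. Ncapg2, a condensin subunit, was 7.11 and 8.04 at sham and 8.81 and 9.55 after TAC. For each of the 3 genes the TAC arrays stood above the sham arrays in both lineages, and the traced array was the lower at each surgery. Ect2 and Gmnn lay below the array median on both sham arrays, so their sham differences are between dim values.

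The list of proliferation genes separated the surgeries. After TAC 33 of its 34 detected genes were lower in traced cells in the brightest probe set, against 61.2% of all detected genes, and 10 were at least 1.5-fold lower, against 1.41%. At sham 14 of the 34 were lower, against 68.8%, and 3 were at least 1.5-fold lower, against 3.8%. The list median was 0.06 at sham and -0.51 after TAC, and 0.07 and -0.47 after loess. In all probe sets and at both surgeries 1 gene was higher (2.9%) and 8 were lower (23.5%). These shares lay below the 8.41% and 26.5% of all detected genes. Summed over the list the intensities were 7550 in traced and 7494 in untraced cells at sham, and 28945 and 37971 after TAC. Pbk, a mitotic kinase, was 5.73 and 6.07 at sham and 9.11 and 9.86 after TAC, and Rrm2, a subunit of ribonucleotide reductase, was 7.38 and 7.83 at sham and 9.98 and 10.60 after TAC. Ube2c, which works with the anaphase-promoting complex, was the 1 gene not lower after TAC, at 11.65 and 11.45. Both lineages thus had far higher levels of these genes after TAC, with the untraced array above the traced. In bulk samples such as these, fewer cycling cells and less RNA of these genes per cell cannot be told apart. The untraced TAC array is also the one with the low 18S signal and the high Gapdh ratio, and its part in the list's difference was not tested.

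**Figure D4:**
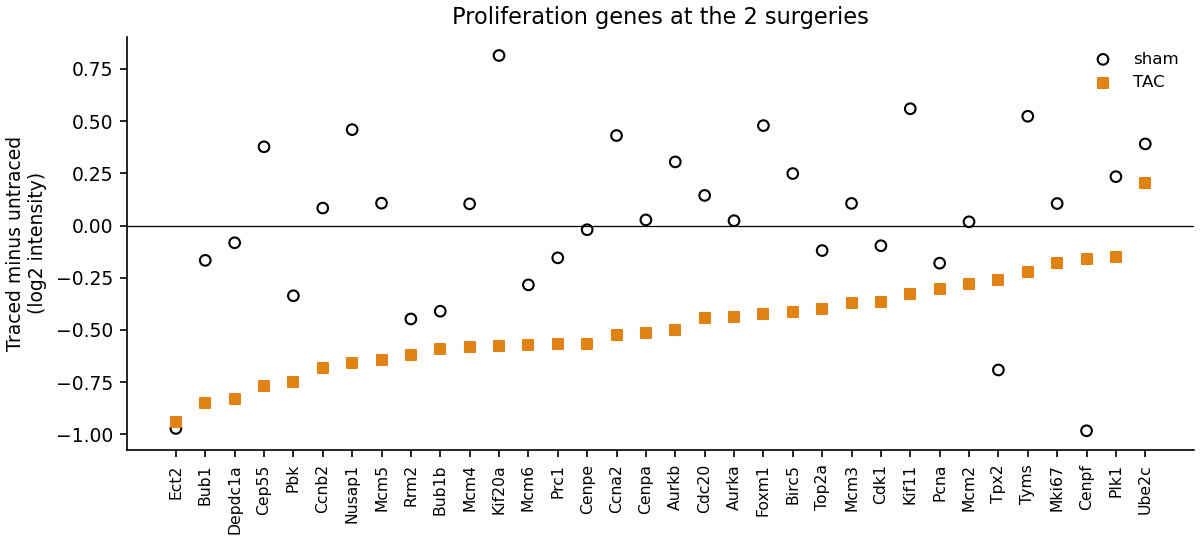
Lineage difference (traced minus untraced, log2 intensity, y axis) of the 34 detected proliferation genes at sham (circles) and after TAC (squares), ordered by the TAC difference, with 1 array per group. The sham circles scatter on both sides of 0 and the TAC squares lie below 0 except for Ube2c at 0.21.

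Several macrophage genes were higher in traced cells. Of 38 macrophage markers 35 were on the array and 14 were detected, and of these 7 were higher at both surgeries in all probe sets and 2 lower, against 8.41% and 26.5% of all detected genes. The medians were 0.26 at sham and 0.23 after TAC, and 0.25 and 0.24 after loess. Igsf6, an immunoglobulin-family receptor of myeloid cells, was 7.49 in traced and 6.35 in untraced cells at sham and 6.86 and 5.78 after TAC. Igsf6 and Fcer1g, another of the 7, were above the array median only on traced arrays. They entered the count through the lineage in which they are higher. C1qb, a complement subunit made by macrophages, was 8.04 and 7.38 at sham and 7.16 and 6.66 after TAC. Csf1r, the receptor for macrophage colony-stimulating factor, was 6.85 and 6.63 at sham and 8.29 and 7.59 after TAC. Lyz2, a lysozyme, differed by 0.38 and 0.29. Each of these was higher in the traced array of its pair. Cd14, a coreceptor for bacterial endotoxin, and Lgmn, a lysosomal protease, were lower, the former by -0.33 and -0.20.

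The levels of the defining markers were uneven. Cx3cr1, a marker of the list, was 9.94 in traced and 9.09 in untraced cells at sham and 8.39 and 7.16 after TAC. Its second probe set was not higher at both surgeries, so Cx3cr1 is not among the 7. Ptprc, the pan-leukocyte antigen CD45, was not detected and read 5.34 in traced and 5.35 in untraced cells at sham and 4.78 and 5.12 after TAC. Adgre1, the F4/80 antigen, was not detected either. Over the 35 markers on the array, detected or not, the summed intensity was 4948 in traced and 3974 in untraced cells at sham. After TAC it was 4413 and 4028, and on the endothelial arrays 3768 and 5686. The endothelial TAC array held the highest sum and the endothelial sham array the lowest, and the traced array was the higher of each fibroblast pair. Bright members weigh most in such sums, which include Cx3cr1 and Laptm5, whose probe sets did not all agree. In its brightest probe set Laptm5 was 8.46 in traced and 6.88 in untraced cells at sham and 7.05 and 6.87 after TAC. Of 4 detected MHC class II genes 2 were higher (50.0%) and none lower, against 8.41% and 26.5% of all detected genes. The list medians were 0.49 and 0.20, and Cd74, the invariant chain, differed by 0.50 and 0.37. Of 4 detected erythroid and platelet markers 1 was higher, Pf4, a platelet chemokine that some macrophages also make, at 0.41 and 0.48. Macrophages carried along in the sort and expression of these genes by traced fibroblasts cannot be told apart here.

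**Figure D5:**
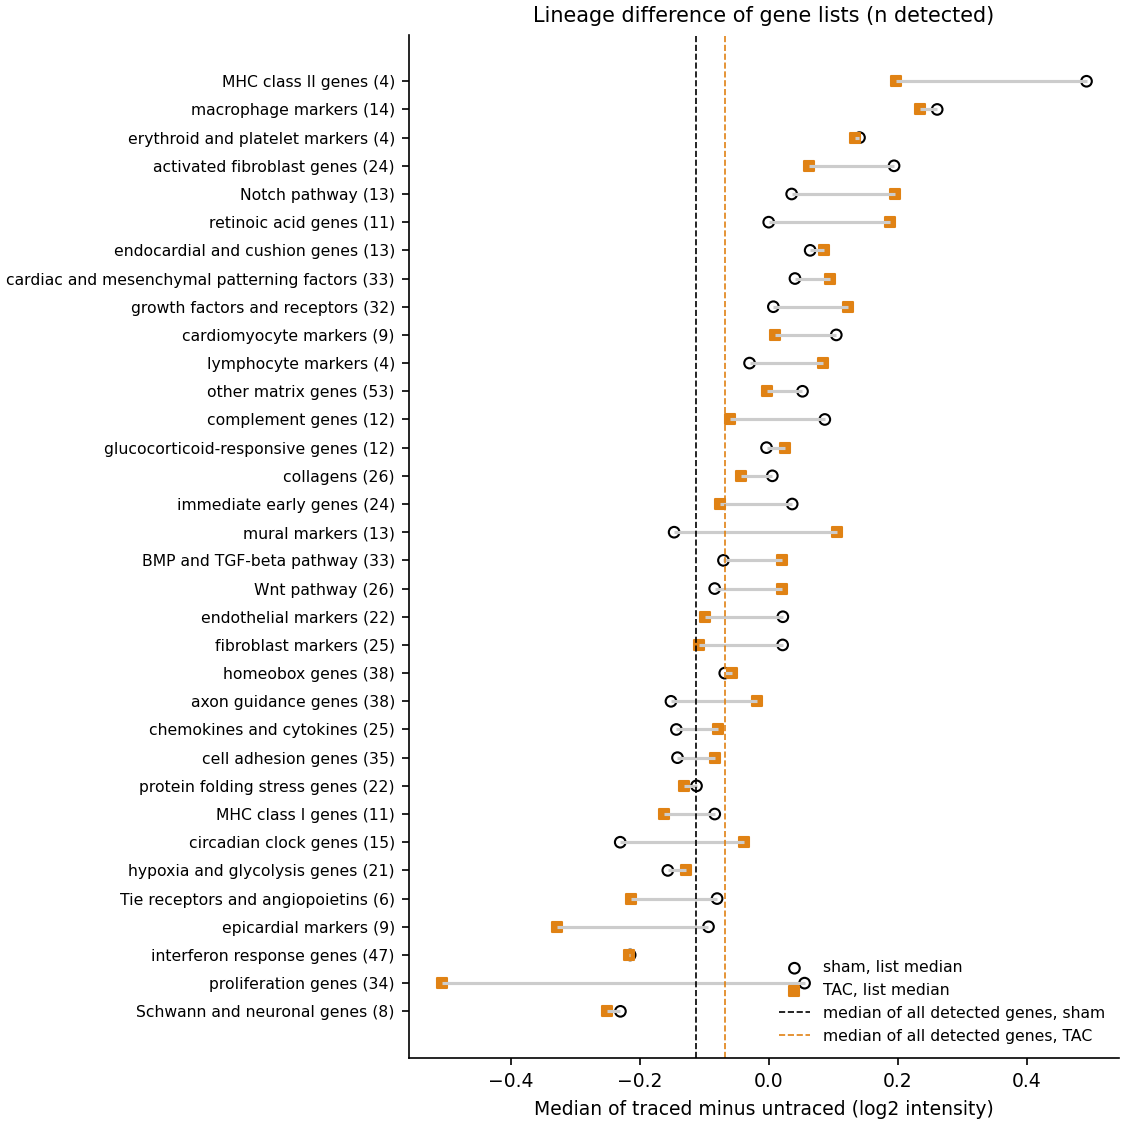
Median lineage difference (traced minus untraced, log2 intensity, x axis) of each gene list with at least 4 detected genes, with a circle for sham, a square for TAC and the number of detected genes in brackets. The dashed lines mark the medians of all detected genes at -0.11 (sham) and -0.07 (TAC); macrophage markers lie to the right of both lines at both surgeries, interferon response genes to the left, and proliferation genes are far left after TAC alone.

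Some interferon response genes were lower in traced cells at both surgeries. Many genes that type I interferons switch on carry a DNA element before their start that is known as the interferon-stimulated response element (ISRE). Of 47 detected genes of the list 17 were lower at both surgeries in all probe sets and 4 higher, and after loess 12 were lower and 7 higher, shares of lower genes not far above the 26.5% and 21.1% of all detected genes. The medians were -0.22 at sham and -0.22 after TAC, and -0.09 and -0.19 after loess. Usp18, a protease that removes ISG15, was 6.81 in traced and 7.64 in untraced cells at sham and 8.48 and 8.93 after TAC. Ifit3, an antiviral protein that binds other IFIT proteins, was 9.36 and 9.95 at sham and 10.23 and 10.69 after TAC. Irgm1, an immunity-related GTPase, was 7.62 and 8.10 at sham and 8.20 and 8.84 after TAC, and Gbp3, a guanylate-binding protein, was 8.66 and 9.03 at sham and 9.23 and 9.88 after TAC. Within each surgery the traced array was the lower for these 4 genes. Of 11 detected MHC class I genes 1 was higher (9.1%) and 3 were lower (27.3%). Among the lower was Nlrc5, the transcriptional activator of these genes, at -0.58 and -0.47.

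The promoters of the last 3 named interferon genes are shown as 3 of the 5 members of the list that hold the element's core and were lower at both surgeries in all probe sets. The sequences are the 250 bases before the start of each gene, 5′ to 3′ in the direction of the gene, from RefSeq on GRCm38.p6. Ifit3 lies at chr19:34583279-34583528 on the plus strand, Irgm1 at chr11:48871421-48871670 on the minus strand and Gbp3 at chr3:142559794-142560043 on the plus strand. Capitals mark matches of the ISRE core, a pair of GAAA with any 2 bases between, on either strand, which reads as a pair of TTTC on the other.
Ifit3: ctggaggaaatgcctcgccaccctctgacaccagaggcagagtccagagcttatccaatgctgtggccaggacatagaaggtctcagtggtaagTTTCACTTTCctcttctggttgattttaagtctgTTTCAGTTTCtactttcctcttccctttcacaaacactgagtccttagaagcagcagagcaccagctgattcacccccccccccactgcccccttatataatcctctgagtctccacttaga
Irgm1: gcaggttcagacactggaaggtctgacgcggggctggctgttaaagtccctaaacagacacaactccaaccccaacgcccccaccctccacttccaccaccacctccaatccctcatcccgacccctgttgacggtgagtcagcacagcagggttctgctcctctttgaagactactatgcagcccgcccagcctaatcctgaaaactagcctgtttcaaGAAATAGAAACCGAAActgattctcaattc
Gbp3: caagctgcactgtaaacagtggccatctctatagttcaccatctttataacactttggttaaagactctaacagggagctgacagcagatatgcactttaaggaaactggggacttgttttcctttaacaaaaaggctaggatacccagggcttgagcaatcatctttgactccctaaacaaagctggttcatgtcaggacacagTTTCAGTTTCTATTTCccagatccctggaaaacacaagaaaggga
Each of the 3 has 2 matches, which overlap in Irgm1 and Gbp3. The core was found in 14 of 35 detected interferon genes with a promoter in the table (40.0%), against 2.99% of 9426 detected genes and 3.46% of all 27025 genes. Of the 12 list members that were lower in all probe sets and had a promoter, 5 held it (41.7%), about the share of the whole list. For the macrophage markers the core GAGGAAGT of the factor PU.1 was looked for on both strands, and none of 11 promoters held these letters in this window, against 2.71% of detected genes.

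Of 26 detected collagens 4 were higher (15.4%) and 5 lower (19.2%), against 8.41% and 26.5% of all detected genes, with medians of 0.01 and -0.04. Of 53 other detected matrix genes 14 were higher (26.4%) and 7 lower (13.2%), with medians of 0.05 at sham and -0.00 after TAC. Fmod, a proteoglycan that binds collagen fibrils, was 11.70 in traced and 10.21 in untraced cells at sham and 13.73 and 13.43 after TAC. Mfap2, a microfibril protein, was 10.41 and 10.12 at sham and 11.62 and 10.19 after TAC in its brightest probe set. The second probe set of Mfap2 had its larger difference at sham, with 0.37 there and 0.06 after TAC. Among 24 detected genes of activated fibroblasts 9 were higher (37.5%) and 3 lower (12.5%), with medians of 0.19 and 0.06. In both lists the share of higher genes was above, and that of lower genes below, that of all detected genes. Wfdc18, a small secreted protein, was 6.82 and 6.32 at sham and 11.97 and 10.85 after TAC, and Comp, a cartilage matrix protein, was 10.31 and 10.04 at sham and 12.51 and 11.94 after TAC. For these 2 genes the response to surgery was larger than the lineage difference in both lineages. Col11a1, a fibrillar collagen chain, differed by 0.72 and 0.22.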

How the data were processed

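RNA of sorted left ventricular cells was measured on 6 Affymetrix mouse arrays, labelled from 200 ng of total RNA. The deposited values are linear intensity values of 45101 probe sets, and the submitters' processing notes name RMA, which normalizes arrays to each other. The version of RMA is not given in the sources used here. That the scale is linear (3.82 to 37205) was read from the values. Medians of the fibroblast arrays lay between 106.6 and 113.2, and the number of arrays limits the precision.

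Log2 was taken with no further normalization, using Python 3.11.15 and pandas 2.3.3. Genes came from the platform annotation, updated by identifier (99.4% found). Of the probe sets 34958 had 1 symbol and were used, 932 had several and 9211 had none listed. A gene's representative was its brightest probe set over the 6 arrays. Endothelial arrays thus helped choose the probe set but entered no difference between lineages. Scripts were tested on simulated data. Alternatives were quantile normalization, array medians, loess (statsmodels 0.14.6, span 0.3), other filters, other uses of probe sets, and each surgery alone.

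The members and the 37 gene lists were chosen with earlier results of these data known. Eligible for naming were genes at least 2-fold different at both surgeries and the 20 agreeing genes per direction ranked by the smaller difference. So were up to 4 agreeing members per list and direction, label-check genes, and genes at least 2-fold different that another probe set contradicts. Only some of the 20 per direction are named in the text. Thumpd3, Setd5, Fam217b, AI593442, Il6ra, Lig1 and the genes not agreeing in sign were named after their values were seen. The same holds for Astx3, Speer8-ps1, Cntfr, Sned1, Csf1r and Gbp3.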

Additional observations from a re-analysis of the deposited data

Results flagged for a closer look

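The following 8 genes differed by at least 1.5-fold in opposite directions at sham and after TAC in their brightest probe sets. Values are traced minus untraced in log2 intensity. Agreement of other probe sets was not asked here, and Hmmr has 5 probe sets and Ska1 and Hbb-bh1 have 3 each. Each of the 8 lay below the array median on at least 1 of the 4 fibroblast arrays. With 1 array per group the difference between the surgeries was not tested. The cell cycle genes Ska1 (0.96 and -0.94), Asf1b (0.68 and -0.81), Hmmr (1.12 and -0.59) and Cdca7l (0.68 and -0.61) were higher in traced cells at sham and lower after TAC. Ska1 serves the attachment of chromosomes to the spindle, Asf1b is a histone chaperone, Hmmr is a hyaluronan receptor of the mitotic spindle, and Cdca7l is a partner of Myc. Tm4sf5, a tetraspanin-like membrane protein, gave 1.18 and -0.71, Upk2, a uroplakin, 0.84 and -0.68, and Hbb-bh1, an embryonic globin, 0.70 and -0.62. Rpl39l, a ribosomal protein paralogue, went the other way with -1.01 and 1.06.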

How the results depend on the processing

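All 56 genes of at least 1.5-fold kept their sign under the alternatives run, but list medians did not: 45 of 354 values, in 20 of 37 lists, had the other sign than the main value, 14 of them with the sham or TAC arrays alone. Main counts are 977 higher and 3081 lower at any size, 28 and 28 at 1.5-fold and 4 and 2 at 2-fold. With only genes above the upper quartile they were 579, 1837, 12, 3 and 0 (2-fold lower). Without the filter 2106 genes were higher at any size and 4 at least 2-fold lower. Requiring the mean of the 4 arrays above the median left 14 at least 1.5-fold lower and 0 at least 2-fold lower. With no agreement between probe sets the counts were 1990 higher, 5492 lower and 4 at least 2-fold lower, and with agreement only of brighter probe sets 4. The mean of a gene's probe sets gave 0 at least 2-fold lower, and leaving out probe sets that can hybridise to several transcripts gave 2 at least 2-fold higher. Centring each array on its own median gave 49 at least 1.5-fold lower and 1 at least 2-fold higher. The sham arrays alone gave 2049, 5471, 142, 345, 36 and 37 in the same order, and the TAC arrays alone 2940, 4631, 168, 128, 32 and 9.

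The macrophage median of the sham and TAC mean difference was 0.35, and 0.30 with own medians, 0.39 with loess, 0.16 with no filter, 0.32 with the mean of probe sets, 0.26 at sham alone and 0.23 after TAC alone. The interferon median was -0.18, and -0.13 with quantile normalization, -0.24 with own medians, -0.12 with loess, -0.18 with the mean filter, -0.18 with the upper quartile, -0.14 with the mean of probe sets, -0.22 at sham alone and -0.22 after TAC alone. The proliferation median was -0.24 and changed sign, at 0.06 for sham alone and -0.51 after TAC alone. The cause of these shifts was not tested beyond what each setting removes. Among named genes 162 of 1368 values moved by more than the spread of the sham and TAC values, and among the other lists 66 of 325. No paired analysis was possible because of the replicate numbers: each group has 1 array, so the groups share only 1 number. All differences were taken within a surgery. A fit with surgery as a block, which would take sham and TAC as replicates of a lineage, was not run.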

Other observations

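Genes of metabolism and stress differed little between the lineages. Of all detected genes 8.41% were higher and 26.5% lower in traced cells at both surgeries in all probe sets. Of 21 detected hypoxia and glycolysis genes none was higher and 7 were lower (33.3%) by this measure. The list medians were -0.16 and -0.13 against -0.11 and -0.07 for all detected genes. Pgk1, a glycolytic kinase, differed by -0.29 and -0.38, and Ldha, which makes lactate, by -0.22 and -0.30. Of 22 detected protein folding stress genes 1 was higher and 8 were lower (36.4%), among them Asns, asparagine synthetase, at -0.37 and -0.44. Of 15 detected circadian clock genes 1 was higher and 2 were lower, among them Cry1, a repressor of the clock, at -0.78 and -0.47. Of 12 detected glucocorticoid-responsive genes 4 were higher and 3 lower, with Mt2, a metallothionein, at 0.40 and 0.56 and Sgk1, a kinase, at -0.30 and -0.46. Of 24 detected immediate early genes 4 were higher and 5 lower.

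Among 25 detected chemokines and cytokines 2 were higher (8.0%) and 8 lower (32.0%), against 8.41% and 26.5% of all detected genes. The list medians were -0.14 and -0.08. Il15, a cytokine that sustains lymphocytes, differed by -0.48 and -0.50, and Cxcl5, which draws neutrophils, by -1.36 and -0.31. Of 12 detected complement genes 3 were higher and 4 lower, with Cd59a, an inhibitor of the membrane attack complex, at 0.50 and 0.57 and Cfi, which inactivates C3b, at -0.46 and -0.58. Of 35 detected cell adhesion genes 1 was higher (2.9%) and 8 were lower (22.9%). Among the lower was Mcam, an adhesion molecule of vessel walls, at -1.01 and -0.34. Of 11 detected retinoic acid genes 2 were higher and 3 lower. Of 9 detected cardiomyocyte markers none was higher and 1 was lower, and of 3 detected neural crest factors Foxd1 was lower, at -1.42 and -0.22.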
